A study of Mus musculus with 9 samples.

Results

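The genes described here are 10 hypoxia-linked genes of mitochondria and mitophagy, namely *Bnip3*, *Bnip3l*, *Fundc1*, *Higd1a*, *Cox4i2*, *Ndufa4l2*, *Fam162a*, *Lonp1*, *Mxi1* and *Pdk1*. They are a list of symbols, matched to the 46517 genes of the gene-level tables. All 3 groups were wild-type duodenal organoids from C57BL/6J mice, in which crypt cells were grown in Matrigel with conditioned medium carrying Wnt3a, R-spondin 3 and noggin, at 5% oxygen. Dissociated cells received adenovirus at 50 particles per cell, and RNA was collected about 72 h later. The control group received Adeno-GFP (Ad-GFP), the second group Adeno-hHIF2 (Ad-hHIF2) and the third Adeno-HhHIF1 (Ad-hHIF1), with 3 samples each, numbered 1, 3 and 4. Both HIF vectors carried a human cDNA with double proline-to-alanine substitutions that prevent VHL-dependent degradation, so what differs between the groups is the transiently expressed vector, with all 3 groups at the same oxygen level. The study calls the samples biological replicates, but the labels name no animal or culture for each, so p-values measure the spread between these samples.

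Hypoxia-inducible factors (HIFs) are oxygen-regulated transcription factors that, when stable, bind short DNA elements and switch on genes for life with little oxygen. Part of that program acts on mitochondria. BNIP3 and its close relative BNIP3L (also called NIX) sit on the outer mitochondrial membrane and recruit the autophagy machinery, which removes the organelle (mitophagy), while PDK1 inactivates pyruvate dehydrogenase and so keeps pyruvate out of the tricarboxylic acid cycle. Other members adjust the respiratory chain, the matrix protease load or the activity of MYC, a driver of mitochondrial gene expression.

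The libraries held 21722618 to 51119041 expected counts, which are the read numbers that RSEM assigns to each gene. The signal recognition particle RNAs and 7SK took 16.7% to 26.8% of these counts, with the lowest share in Ad-hHIF2 replicate 1, and the TMM scaling factor of that library was 1.31 against 0.907 to 1.027 in the other 8. Ad-hHIF1 replicate 3 also stood apart, with 15.96% of its counts in *Gm10800* and *Gm26870* against 0.43% to 4.28% elsewhere. *Epas1*, the gene of HIF2α, reached 672 ± 78.1 CPM in Ad-hHIF2 (CPM are counts relative to library size, with SD over 3 samples) against 1.77 ± 0.382 in Ad-GFP, a log2 fold change of 8.60. *Hif1a* was at 309 ± 9.96 CPM in Ad-hHIF1 and at 220 ± 28.0 in Ad-GFP, a log2 fold change of 0.49 that did not pass the test (adjusted p = 0.486, edgeR). Reads of the human cDNAs and of the mouse genes cannot be told apart in these tables. The epithelial keratins *Krt8*, *Krt18* and *Krt19* averaged 843 to 1260 CPM in the 3 groups and *Cdh1*, the gene of E-cadherin, 218 to 316. Other epithelial markers were low, with group means of 1.68 to 2.94 CPM for *Epcam*, 3.99 to 4.72 for *Vil1* and 7.21 to 8.02 for *Cdx2*, while *Cdx1* was at 0 in all 9 samples and *Fabp1*, *Tff3* and *Chga* averaged at most 0.0641 CPM in each group. As these are bulk samples, fewer cells of a type and less RNA per cell cannot be told apart.

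The 10 genes differed widely in level. On the TPM scale, which corrects for transcript length, the Ad-GFP means were 30.1 ± 2.72 for *Fam162a* and 28.3 ± 3.22 for *Bnip3*, whose samples overlapped. *Bnip3l* followed at 9.92 ± 2.14 and *Lonp1* at 6.87 ± 0.195. *Higd1a* at 3.66 ± 0.420 and *Pdk1* at 3.22 ± 0.0814 again overlapped, and *Mxi1* at 2.12 ± 0.218 and *Fundc1* at 0.537 ± 0.145 were lowest of the genes with a steady signal. *Ndufa4l2*, which encodes a hypoxia-inducible relative of an electron-transport subunit, had 6, 3 and 1 counts in Ad-GFP, 2, 0 and 1 in Ad-hHIF2 and 2, 0 and 12 in Ad-hHIF1. *Cox4i2*, the hypoxia-linked isoform of cytochrome c oxidase subunit 4, had 4 counts in Ad-GFP replicate 3 and 0 in every other sample. Both were too low for the test, so 8 of the 10 genes were tested in each comparison. Their ubiquitous counterparts were well measured, with *Ndufa4* at 29.3 ± 3.99 CPM and *Cox4i1* at 171 ± 16.6 CPM in Ad-GFP. Neither counterpart passed the test in Ad-hHIF2, where the log2 fold changes were -0.16 (95% confidence interval -0.44 to 0.12) and -0.25 (-0.53 to 0.02). With total-count scaling *Ndufa4* was at 0.09, below the median of 0.24 that all genes had under that scaling, and both genes were positive on TPM scales, which raised the median of all genes as well (by 0.26 and 0.40 for the pseudocounts 1 and 0.1).

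The RefSeq promoter set used here (GRCm38.p6) held sequence upstream of the start for 7 of the 10 genes, at 10 starts. It had no entry for *Bnip3l*, *Ndufa4l2* and *Cox4i2*, whose upstream sequence was not searched. Upstream sequence is shown because it holds the element that HIFs are known to bind. The 250 bases before each start were searched for the HIF core ACGTG or GCGTG on either strand, where a palindromic CACGTG counts as 2 overlapping cores. A core was present at 7 of the 10 starts, and 38.6% of the 32851 mouse promoters in the same set held at least 1 in the same span. Capitals mark the cores, read on either strand, in the runs below, each given 5′ to 3′ on the gene's own strand. *Bnip3* had 5 cores (chr7:138909520-138909756, minus strand), *Lonp1* 6 (chr17:56626904-56627153, minus strand), *Pdk1* 1 at its first start (chr2:71872974-71873223, plus strand) and 0 at its second. *Mxi1* had 0 at its first start, 1 at its second (chr19:53329163-53329412, plus strand) and 1 at the last start, which is not printed. For *Higd1a*, with 2 cores, and *Fam162a*, with 6, an annotated exon covers the 5′ end of the searched span. Only the 30-base window with most cores is printed for each (chr9:121857848-121857877 and chr16:36071615-36071644, both minus strand). These windows were chosen for their cores and were not checked against exons, and that of *Higd1a* lies within the annotated gene. *Fundc1* had none. A match is a description of the letters and says nothing of binding in these cells.
Bnip3: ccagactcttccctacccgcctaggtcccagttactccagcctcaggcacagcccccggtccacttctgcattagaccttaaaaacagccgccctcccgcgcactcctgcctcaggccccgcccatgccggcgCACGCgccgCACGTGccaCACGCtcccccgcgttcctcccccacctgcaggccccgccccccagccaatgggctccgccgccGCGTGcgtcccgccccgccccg
Pdk1: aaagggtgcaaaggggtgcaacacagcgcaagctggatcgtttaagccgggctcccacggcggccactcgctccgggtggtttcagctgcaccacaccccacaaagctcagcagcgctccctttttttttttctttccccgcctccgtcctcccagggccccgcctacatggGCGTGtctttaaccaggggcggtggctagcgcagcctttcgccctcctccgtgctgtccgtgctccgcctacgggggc
Lonp1: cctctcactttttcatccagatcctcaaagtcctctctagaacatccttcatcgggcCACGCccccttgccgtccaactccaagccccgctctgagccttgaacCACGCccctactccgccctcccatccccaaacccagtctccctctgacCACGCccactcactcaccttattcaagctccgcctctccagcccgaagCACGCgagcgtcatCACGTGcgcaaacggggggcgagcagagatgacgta
Mxi1, second start: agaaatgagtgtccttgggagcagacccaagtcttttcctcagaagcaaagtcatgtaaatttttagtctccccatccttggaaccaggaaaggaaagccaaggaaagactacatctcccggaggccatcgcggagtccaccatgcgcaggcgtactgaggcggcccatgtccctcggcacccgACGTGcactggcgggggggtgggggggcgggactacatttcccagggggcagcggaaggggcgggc
Higd1a window: cggtctagcctGCGTGCGTGgcgttcgcgg
Fam162a window: cgCACGTcccgCACGCccgctgcgtCACGC

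Comparing each HIF with Ad-GFP asks which of these genes respond to a stable HIF in the intestinal epithelium. In Ad-hHIF2 organoids, *Higd1a*, *Fam162a* and *Pdk1* fell and *Mxi1* and *Lonp1* rose relative to Ad-GFP, while the mitophagy receptors *Bnip3*, *Bnip3l* and *Fundc1* did not pass the test. The 5 genes that passed (adjusted p below 0.05, edgeR quasi-likelihood test) compare with 4416 of the 14987 genes tested, or 29.5%. The genes higher in Ad-hHIF2 made up 15.9% of all tested and those lower 13.6%. Samples of Ad-hHIF2 and Ad-GFP did not overlap for 5 of the 8 genes, as for 45.8% of all genes. The median log2 fold change of the 8 genes was -0.15, and that of all genes -0.01. Relative to Ad-GFP, Ad-hHIF1 organoids had higher mean levels of all 8 genes, with a median of 0.19 against 0.00 over all genes, and none passed the test. These comparisons share the Ad-GFP samples. Total-count scaling in place of TMM moved the median log2 fold change of all genes by 0.26 in Ad-hHIF2 and by 0.08 in Ad-hHIF1, and turned the 2381 higher and 2035 lower genes of Ad-hHIF2 into 3491 and 828.

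**Figure D1:**
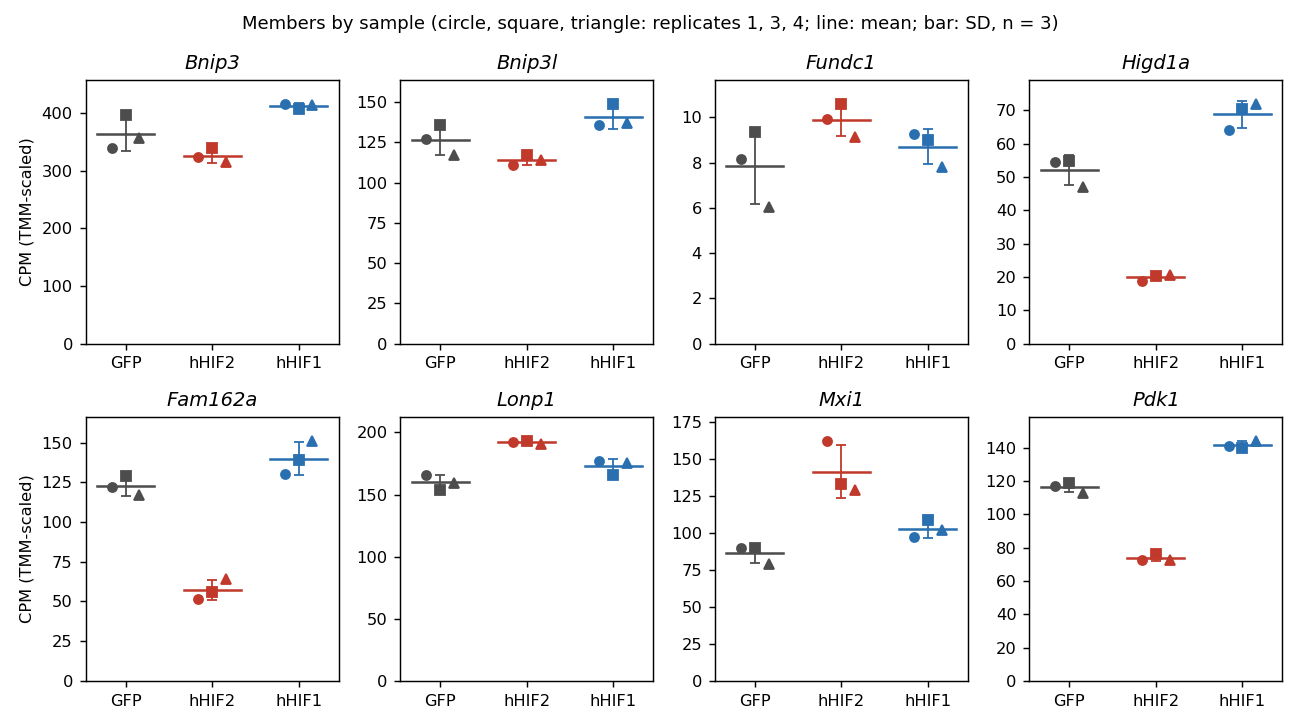
Levels of the 8 testable genes in CPM scaled by TMM factors (y axis, from 0) for each sample of the 3 groups (x axis), with the mean as a line and the SD as a bar (n = 3). For *Higd1a*, *Fam162a* and *Pdk1* the 3 Ad-hHIF2 samples sit below all other samples, and for *Mxi1* and *Lonp1* above them.

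The mitophagy receptors are described first. *Bnip3* (chr7:138890836-138909519, minus strand, positions here and below in GRCm38) was measured at 339, 397 and 357 CPM in Ad-GFP, 323, 340 and 315 in Ad-hHIF2, and 416, 406 and 414 in Ad-hHIF1. Ad-hHIF2 replicate 3 and Ad-GFP replicate 1 were nearly equal, so these groups overlapped, whereas all Ad-hHIF1 samples were above all others. The log2 fold change was -0.16 in Ad-hHIF2 (95% confidence interval -0.35 to 0.04, adjusted p = 0.208, edgeR) and 0.18 in Ad-hHIF1 (-0.02 to 0.37, adjusted p = 0.599). The sign in Ad-hHIF2 depends on scaling, since total-count scaling gave 0.10, below the median of 0.24 that all genes had under that scaling. *Bnip3l* (chr14:66985239-67008877, minus strand) was at 127, 136 and 117 CPM in Ad-GFP, 111, 117 and 114 in Ad-hHIF2, and 136, 149 and 137 in Ad-hHIF1. It had the same order of means as *Bnip3*, with overlap of each HIF group with Ad-GFP. Its log2 fold changes were -0.15 (-0.33 to 0.03, adjusted p = 0.189, edgeR) in Ad-hHIF2 and 0.15 (-0.05 to 0.34, adjusted p = 0.642) in Ad-hHIF1, and total-count scaling again turned the former to 0.10. *Fundc1* (chrX:17556564-17572325, minus strand) encodes an outer-membrane receptor that binds LC3, and it was at 8.14, 9.34 and 6.05 CPM in Ad-GFP, 9.92, 10.6 and 9.15 in Ad-hHIF2, and 9.28, 8.98 and 7.82 in Ad-hHIF1. It was the most scattered of the tested genes in Ad-GFP, where 121 to 337 counts lay behind these values, and the groups overlapped. Its log2 fold change of 0.33 in Ad-hHIF2 had an interval of -0.02 to 0.68 (adjusted p = 0.141, edgeR), and with total-count scaling it was 0.59 and passed (adjusted p = 0.0201).

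*Higd1a* and *Fam162a* gave the largest differences. *Higd1a* (chr9:121848563-121858362, minus strand) encodes a small inner-membrane protein that associates with cytochrome c oxidase and respiratory supercomplexes. It was at 54.6, 54.7 and 46.9 CPM in Ad-GFP, 18.9, 20.3 and 20.7 in Ad-hHIF2, and 64.2, 70.3 and 72 in Ad-hHIF1. The 3 groups did not overlap, and the Ad-hHIF2 samples were lowest. The level fell by 61.6% in Ad-hHIF2, a log2 fold change of -1.38 (SE 0.0838, adjusted p = 1.19e-05, edgeR). In Ad-hHIF1 the log2 fold change was 0.40 (0.20 to 0.60), with an unadjusted p of 0.00175 and an adjusted p of 0.486 in edgeR's test. It passed in 1 of 18 alternatives, edgeR with no filter on low counts (adjusted p = 0.0255). *Fam162a* (chr16:36043761-36071594, minus strand), also known as HGTD-P, encodes a mitochondrial protein linked to hypoxic cell death, and it was at 122, 129 and 117 CPM in Ad-GFP, 51.7, 56.0 and 64.4 in Ad-hHIF2, and 130, 139 and 151 in Ad-hHIF1. The 3 groups were again separate and in the same order. Its log2 fold change was -1.09 in Ad-hHIF2 (SE 0.0963, adjusted p = 9.41e-05, edgeR) and 0.20 in Ad-hHIF1 (0.00 to 0.39, adjusted p = 0.581). *Higd1a* and *Fam162a* were the 2 members that both passed and changed at least 2-fold in Ad-hHIF2, where 6.73% of all genes did so. Without Ad-hHIF2 replicate 1 the log2 fold changes were -1.32 and -1.0, and both still passed. On the deposited TPM scale, where Ad-hHIF2 replicate 1 was the highest of its group for all 8 genes, limma on log2(TPM + 1) gave -0.66 for *Higd1a* (adjusted p = 0.114) and -0.62 for *Fam162a* (adjusted p = 0.279), and of the 5 genes called in Ad-hHIF2 *Mxi1* alone passed there.

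The same direction was seen for *Pdk1* (chr2:71873224-71903858, plus strand), the pyruvate dehydrogenase kinase. It was at 117, 119 and 113 CPM in Ad-GFP, 72.6, 76.0 and 72.8 in Ad-hHIF2, and 141, 140 and 144 in Ad-hHIF1. The groups were separate and each had an SD of at most 3.17 CPM. *Pdk1* fell by 36.3% in Ad-hHIF2 (log2 fold change -0.65, SE 0.0681, adjusted p = 2.35e-04, edgeR). In Ad-hHIF1 its log2 fold change was 0.29 (0.13 to 0.45), which did not pass in edgeR (adjusted p = 0.486, range 0.00313 to 0.803 over 18 alternatives) but passed in DESeq2 (adjusted p = 0.00313). With total-count scaling the fall in Ad-hHIF2 was -0.40 and no longer passed (adjusted p = 0.107). The call held in 15 of 18 alternatives, over which the log2 fold change ran from -0.67 to -0.20.

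*Mxi1* and *Lonp1* moved the other way. *Mxi1* (chr19:53310518-53375810, plus strand) encodes a MAX partner that opposes MYC at shared target genes. It was at 89.8, 89.8 and 78.7 CPM in Ad-GFP, 162, 133 and 129 in Ad-hHIF2, and 97.2, 109 and 102 in Ad-hHIF1. All Ad-hHIF2 samples were above the rest, with replicate 1 the highest, and all Ad-hHIF1 samples were above Ad-GFP. *Mxi1* rose by 64.6% in Ad-hHIF2 (log2 fold change 0.72, SE 0.102, adjusted p = 0.00117, edgeR), and by 0.63 on the log2 scale without replicate 1. In Ad-hHIF1 its log2 fold change was 0.25 (0.06 to 0.45, adjusted p = 0.517). *Lonp1* (chr17:56614297-56626887, minus strand), the ATP-dependent protease of the mitochondrial matrix, was at 166, 154 and 159 CPM in Ad-GFP, 192, 193 and 191 in Ad-hHIF2, and 177, 166 and 175 in Ad-hHIF1. The Ad-hHIF2 samples were above all others and differed little among themselves, while Ad-hHIF1 overlapped with Ad-GFP. *Lonp1* rose by 20.6% in Ad-hHIF2 (log2 fold change 0.27, SE 0.0715, adjusted p = 0.0216, edgeR). This call was lost without Ad-GFP replicate 3 (0.24, adjusted p = 0.0848), without Ad-hHIF2 replicate 3 (0.27, adjusted p = 0.068) and without Ad-hHIF2 replicate 4 (0.28, adjusted p = 0.0612). It was also lost in limma on both TPM scales. The call held in 13 of 18 alternatives, over which the log2 fold change ran from 0.24 to 0.71.

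In Ad-hHIF1 against Ad-GFP, 0 of 15233 genes passed in edgeR (0%), and the smallest adjusted p was 0.0789. An unadjusted p below 0.05 was given to 1308 genes (8.59%), DESeq2 called 145 genes and limma-voom 5. Of the 8 genes, 4 had an unadjusted p below 0.05, namely *Higd1a*, *Pdk1*, *Mxi1* and *Fam162a*. These and *Bnip3* were above Ad-GFP in every sample, 5 of 8, where 8.38% of all tested genes were.

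**Figure D2:**
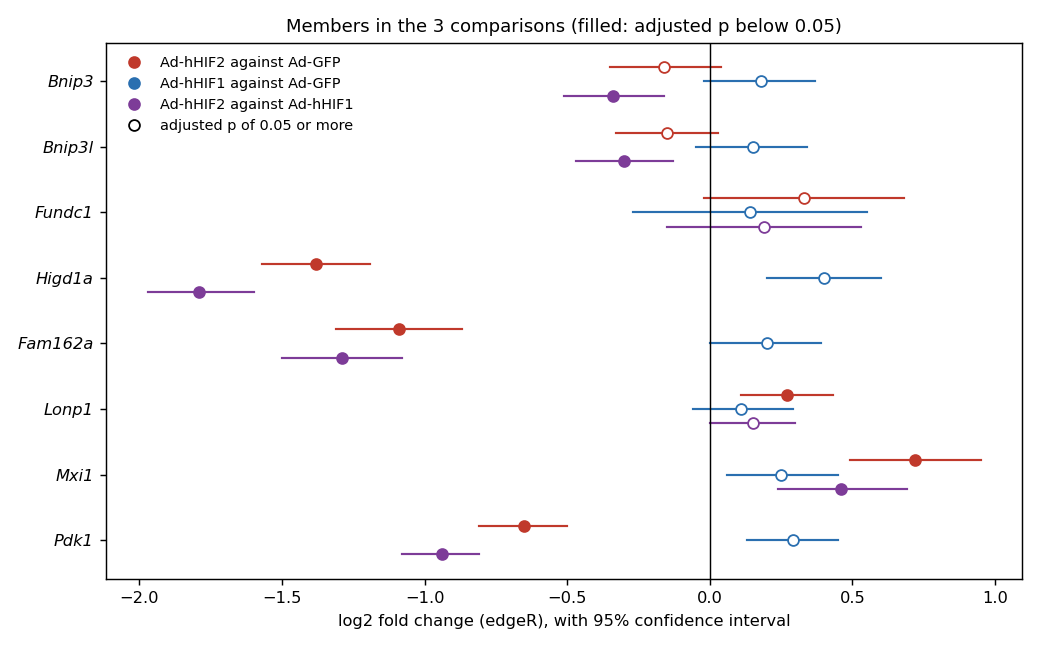
Log2 fold changes from edgeR with 95% confidence intervals (x axis) of the 8 testable genes (y axis) in the 3 comparisons, filled where the adjusted p was below 0.05. The Ad-hHIF2 values run from -1.38 for *Higd1a* to 0.72 for *Mxi1*, whereas all Ad-hHIF1 values lie between 0.11 and 0.40 and are open.

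The groups with HIF vectors were also compared with each other, in a fit of all 9 samples, since this contrast tests the difference between their responses. *Epas1* was 388-fold higher in Ad-hHIF2, at 672 CPM from 1.77 in Ad-GFP. *Hif1a* was 1.41-fold higher in Ad-hHIF1, at 309 CPM from 220 in Ad-GFP. These folds start from unlike levels and are no measure of vector dose, since reads of human cDNAs and mouse genes cannot be told apart. The paper reports HIF overexpression by western blot and qRT-PCR. In this contrast, the HIF and the level of its RNA cannot be told apart. Here 6 of the 8 genes passed, against 4008 of 15556 genes (25.8%). The 5 genes with less RNA under HIF2 than under HIF1 (12% of all genes) were *Higd1a* at a log2 fold change of -1.79 (SE 0.0837, adjusted p = 3.8e-07, edgeR), *Fam162a* at -1.29, *Pdk1* at -0.94, *Bnip3* at -0.34 and *Bnip3l* at -0.30. The adjusted p was 7.66e-06 for *Fam162a*, 3.59e-06 for *Pdk1*, 0.0105 for *Bnip3* and 0.0166 for *Bnip3l* in edgeR. *Mxi1* was higher in Ad-hHIF2 (0.46, SE 0.101, adjusted p = 0.00748, edgeR), as were 13.7% of all genes. *Lonp1* at 0.15 (0.00 to 0.30, adjusted p = 0.122) and *Fundc1* at 0.19 (-0.15 to 0.53, adjusted p = 0.411) did not pass, although *Lonp1* passed in 1 of 21 alternatives (limma-voom, adjusted p = 0.0493). The call for *Bnip3* held in 17 of 21 alternatives and that for *Bnip3l* in 15 of 21. With total-count scaling both were lost (-0.16 and -0.12), without Ad-hHIF2 replicate 4 both were lost (adjusted p = 0.053 and 0.0618, edgeR), and without Ad-hHIF2 replicate 1 *Bnip3l* was lost (adjusted p = 0.0733), as it was with no filter on low counts (adjusted p = 0.0594). In limma on log2(TPM + 1) *Higd1a* alone passed, and *Fam162a* (adjusted p = 0.0509), *Pdk1* (0.158) and *Mxi1* (0.235) were lost as well. Without Ad-hHIF2 replicate 1 only 2594 genes were called in this contrast. Leaving out Ad-hHIF1 replicate 3 changed none of the 6 calls.

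Ratios within a sample do not depend on library scaling. *Higd1a* was 0.92, 1.02 and 0.944 times its relative *Higd2a* in TPM in Ad-GFP, 0.282, 0.321 and 0.344 times in Ad-hHIF2, and 1.09, 1.03 and 1.31 times in Ad-hHIF1. The Ad-hHIF2 ratios were below all others, a difference from Ad-GFP of -1.61 on the log2 scale (exact permutation test, two-sided p = 0.1, the smallest that 3 against 3 samples allow). *Pdk1* relative to the sum of *Pdk2*, *Pdk3* and *Pdk4* was 4.84, 4.19 and 3.08 in Ad-GFP, 2.71, 3.35 and 2.71 in Ad-hHIF2, and 4.49, 4.10 and 5.07 in Ad-hHIF1. Here Ad-hHIF2 overlapped with Ad-GFP (exact permutation p = 0.2) but lay below Ad-hHIF1 (p = 0.1). With CPM in place of TPM it lay below both, at a log2 difference of -0.38 from Ad-GFP and -0.47 from Ad-hHIF1 (exact permutation p = 0.1 each). For *Bnip3* to *Bnip3l*, *Fundc1* to *Fundc2* and *Lonp1* to *Lonp2* every pair of groups overlapped in TPM. On the log2 scale these ratios differed between Ad-hHIF2 and Ad-GFP by 0.33, 0.60 and -0.10 in TPM and by -0.01, 0.32 and -0.08 in CPM, where the *Fundc1* to *Fundc2* ratio of Ad-hHIF2 lay above Ad-GFP without overlap (exact permutation p = 0.1). TPM divides by a gene length that RSEM estimates in each sample.

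**Figure D3:**
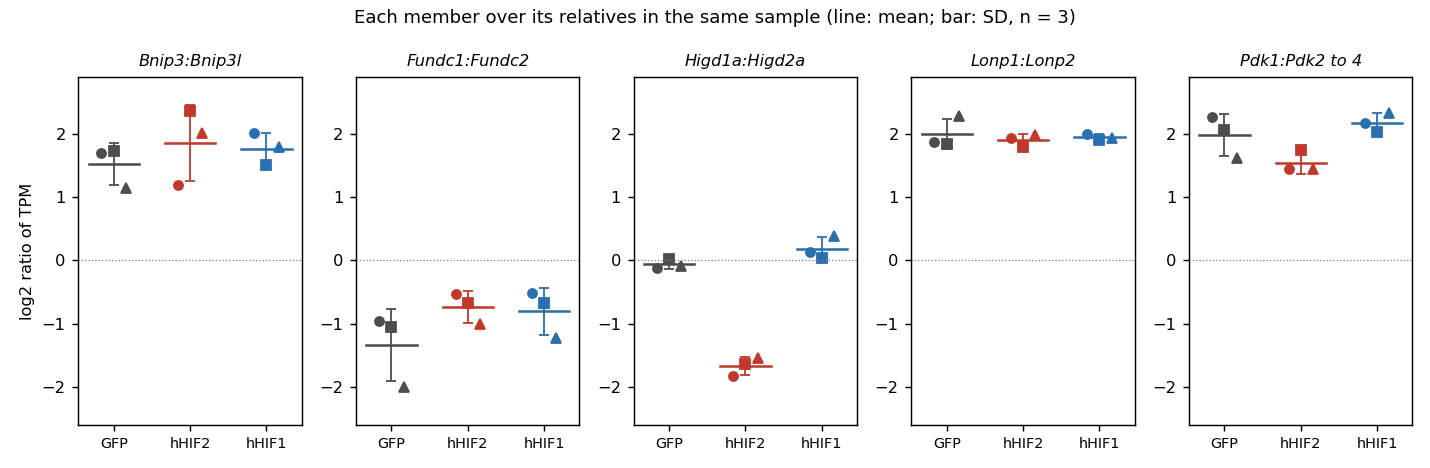
Log2 ratio of TPM values (y axis) between each gene and its relatives in the same sample, for 5 pairs, by group (x axis), with means as lines and SD as bars (n = 3). The *Higd1a* to *Higd2a* ratio averages -0.06 in Ad-GFP, -1.67 in Ad-hHIF2 and 0.18 in Ad-hHIF1, while the other pairs overlap between Ad-hHIF2 and Ad-GFP in TPM.

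Of the relatives of the 10 genes, some moved with the member of their family and some did not. *Pdk2* rose in Ad-hHIF2 (log2 fold change 0.57, adjusted p = 0.0194, edgeR) and *Pdk3* and *Pdk4* fell (-1.04 and -1.13, adjusted p = 0.0129 and 0.00208), all from levels of 3.20 to 5.88 CPM in Ad-GFP. The *Pdk2* call held in 13 of 18 alternatives and the *Pdk3* call in 14 of 18. Among the MXI1 relatives, *Mxd1* rose from 33.9 ± 4.10 to 102 ± 6.21 CPM (1.59, adjusted p = 1.31e-05, edgeR) and *Mxd4* rose by 0.60 on the log2 scale, while *Mxd3*, below 1 CPM in every sample, did not pass. *Myc* fell from 146 ± 2.76 to 65.3 ± 7.46 CPM (-1.16, edgeR adjusted p = 5.32e-05). In the list of the MYC-MAX network, 2 of 11 tested genes rose and 1 fell, where 15.9% of all tested genes were higher and 13.6% lower. *Higd2a* (0.23, 0.03 to 0.44), *Fundc2* (0.04, -0.14 to 0.22) and *Lonp2* (0.34, 0.08 to 0.60) did not pass in Ad-hHIF2. Over the alternatives *Lonp2* passed in 7 of 18 and *Higd2a* in 1 of 18. *Higd1b*, *Higd1c* and *Fam162b* had 0 counts in all samples.

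**Figure D4:**
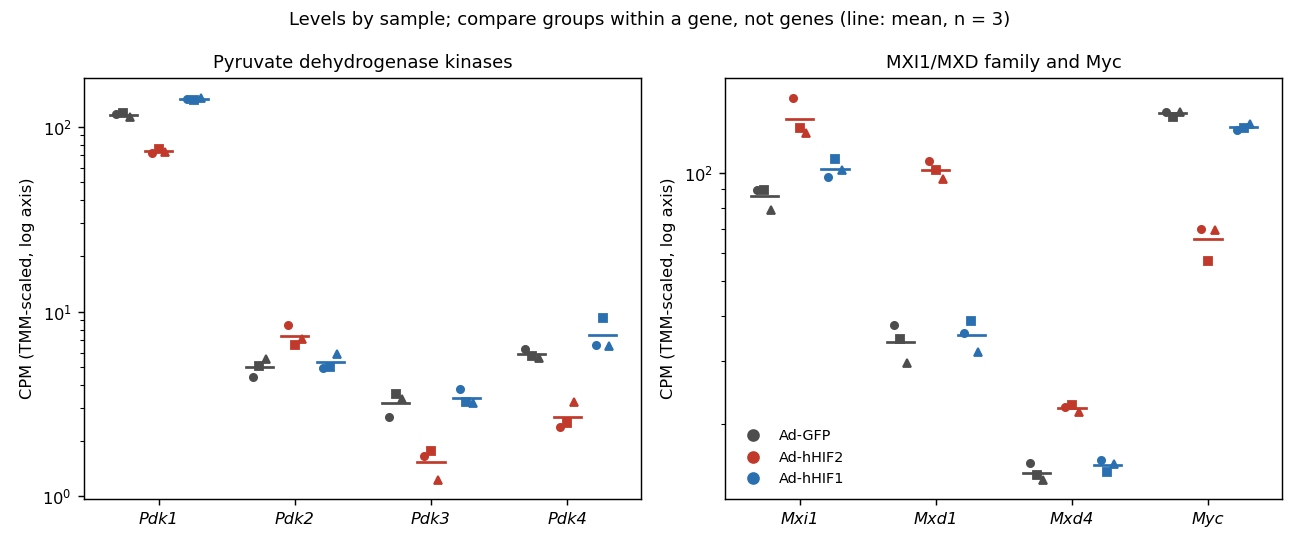
CPM on a log axis (y axis) of the pyruvate dehydrogenase kinases and of *Mxi1*, its relatives and *Myc* (x axis) in each sample, with group means as lines (n = 3). In Ad-hHIF2, *Pdk1*, *Pdk3*, *Pdk4* and *Myc* lie below the other groups and *Pdk2*, *Mxi1*, *Mxd1* and *Mxd4* above them.

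Genes of the pathways around the members were counted in Ad-hHIF2 against Ad-GFP. The counts below stand beside 29.5% of all tested genes called in this comparison, 15.9% higher and 13.6% lower. Of 15 tested mitophagy receptors and regulators outside the members, 4 rose and 2 fell, with a median log2 fold change of 0.16. *Pink1*, the kinase that marks depolarised mitochondria, rose (0.72, adjusted p = 3.75e-04, edgeR), as did the adaptor *Nbr1* (0.47), while the adaptor *Sqstm1* (-0.63) and the inner-membrane LC3 receptor *Phb2* (-0.52) fell. The last 2 calls held in 15 of 18 alternatives each, with *Sqstm1* as small as -0.24 (adjusted p = 0.706) and *Phb2* as small as -0.11 (adjusted p = 0.855) in limma on log2(TPM + 1). Of 17 genes of the autophagosome core, 5 rose and 1 fell, with the phosphoinositide-binding *Wipi1* (0.63) and the lipid kinase *Pik3c3* (0.50, a call that held in 14 of 18 alternatives) at the top. Mitochondrial fission and fusion genes rose in 2 and fell in 1 of 8 cases, where the fusion gene *Mfn2* (0.36) rose and the fission gene *Dnm1l* (-0.29, positive on TPM scales) fell. The *Dnm1l* call held in 10 of 18 alternatives and was lost without Ad-GFP replicate 1 or 3 and without Ad-hHIF2 replicate 3 or 4, and that of *Mief1* (0.31), the other gene that rose, held in 13 of 18.

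Among 12 mitochondrial proteases and chaperones besides *Lonp1*, 3 rose and 5 fell. The matrix chaperonin pair *Hspd1* (-0.93, adjusted p = 6.08e-05, edgeR) and *Hspe1* (-0.91) fell, and the inner-membrane proteases *Afg3l2* (0.75) and *Yme1l1* (0.41) rose. The *Afg3l2* call held in 15 of 18 alternatives, and its log2 fold change ran from 0.55 to 0.89 with samples left out. Its Ad-GFP samples were uneven, at 80.3, 78.0 and 47.2 CPM. In the pyruvate dehydrogenase list, 3 of 10 genes rose and 3 fell, and these include the kinases above as well as the phosphatase *Pdp1* (0.67), which rose. Of 12 genes of mitochondrial biogenesis, 0 rose and 5 fell, beside 15.9% and 13.6% of all tested genes, with a median of -0.10. The coactivators *Ppargc1a* (-1.42, from 7.65 to 2.85 CPM), *Ppargc1b* (-1.49, from 0.793 to 0.271 CPM) and *Pprc1* (-0.74) and the mitochondrial transcription factor *Tfb2m* (-0.44, positive on TPM scales) were among them. The *Ppargc1b* call rests on 5 to 32 counts per sample and held in 3 of 17 alternatives, being lost without any single sample, whereas the *Tfb2m* call held in 13 of 18.

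Of 12 tested mitochondrially encoded protein genes, 0 rose and 4 fell, with a median of -0.57 against -0.01 for all genes. They were *mt-Nd6* (-0.72), *mt-Co1* (-0.67), *mt-Nd5* (-0.62) and *mt-Nd1* (-0.52). These calls held in 12 of 18 alternatives for *mt-Nd6*, 15 of 18 for *mt-Co1*, 8 of 18 for *mt-Nd5* and 10 of 18 for *mt-Nd1*. The smallest differences over these alternatives were -0.25, -0.23, -0.13 and -0.08 in the same order, all in limma on log2(TPM + 1). With samples left out, *mt-Nd5* ran from -0.77 to -0.35 and was lost without Ad-GFP replicate 3 or 4 and without Ad-hHIF2 replicate 1 or 3, as was *mt-Nd1* (-0.68 to -0.39), and *mt-Nd6* was lost without Ad-hHIF2 replicate 1 or 3. The 13 genes of this kind together took 0.97% ± 0.0844 of all expected counts in Ad-GFP, 0.72% ± 0.142 in Ad-hHIF2 and 0.79% ± 0.0087 in Ad-hHIF1 (SD, n = 3). Both HIF groups lay below Ad-GFP in every sample, with an exact permutation p of 0.1 each, the smallest possible here. *mt-Co1* made up most of this share in every sample. The nearest samples of Ad-hHIF2 and Ad-GFP, replicate 1 of each, were at 0.88% and 0.89%. They held 6.4 and 39956.43 expected counts of *mt-Co2*, so the separation of Ad-hHIF2 from Ad-GFP depends on that gene. As a share of TPM the difference between these groups was -0.01 percentage points (exact permutation p = 0.4). That share has a smaller base, as *mt-Co1* averaged 720 TPM in Ad-GFP and 663 in Ad-hHIF2, but 8320 and 5210 CPM. Differences in percentage points therefore cannot be compared in size between counts and TPM. Some of the mitochondrially encoded genes were poorly resolved, as *mt-Co2* ranged from 6.4 to 35435 expected counts within Ad-hHIF2.

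The other hypoxia genes moved in both directions in Ad-hHIF2, with 6 of 13 higher and 3 lower and a median of 0.22. *Ankrd37* (2.32), *Egln3*, an oxygen-sensing hydroxylase (1.45), and the vasoactive peptide gene *Adm* (1.25) rose, and *Ddit4*, an inhibitor of mTORC1, fell (-1.30, adjusted p = 3.64e-05, edgeR). In Ad-hHIF1 no gene of these lists passed, and the list medians lay between -0.17 and 0.09.

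**Figure D5:**
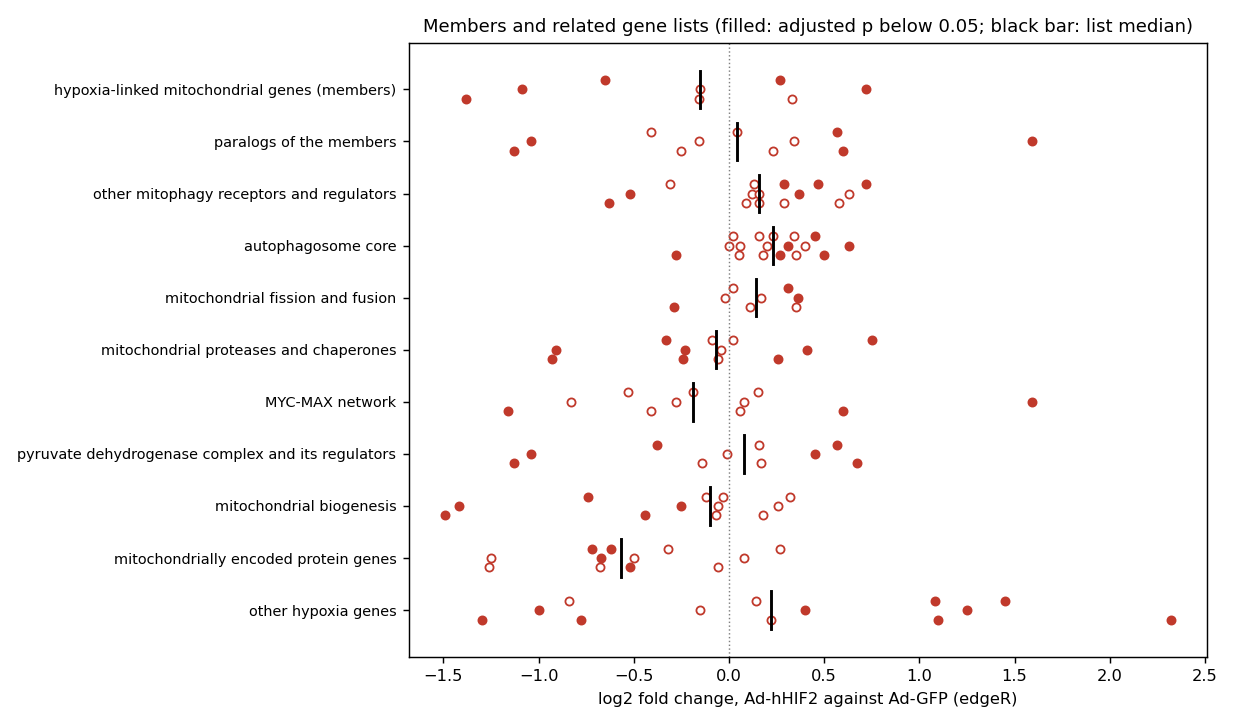
Log2 fold change in Ad-hHIF2 against Ad-GFP (x axis) of each tested gene of the members and of the related lists (y axis), filled where the edgeR adjusted p was below 0.05, with the list median as a black bar. The median is -0.57 for mitochondrially encoded genes and 0.23 for the autophagosome core, and some genes stand in more than 1 list.

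The related genes were also compared between the HIF groups, a contrast that contains the same Ad-hHIF2 samples. *Sqstm1* (-0.82), *Hspd1* (-0.99), *Ppargc1a* (-1.36), *Myc* (-1.04), *Pdk3* (-1.14) and *Pdk4* (-1.46) were lower, and *Pink1* (0.71), *Nbr1* (0.48), *Mfn2* (0.48), *Mxd1* (1.53) and *Pdp1* (0.59) were higher, all past the threshold in edgeR. By number of genes called, the leading lists were the other hypoxia genes (10 of 13), the MYC-MAX network (6 of 11) and the other mitophagy genes (6 of 15). Of all genes in this contrast 25.8% were called. By share of tested genes, the paralogs and the mitochondrial proteases and chaperones stood above the other mitophagy genes. Of mitochondrially encoded genes 1 of 13 passed here, *mt-Nd4l* (lower), which had 0 counts in all 3 Ad-hHIF2 samples and in 2 of the Ad-GFP samples.

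Over the 9 samples, log2 CPM of *Higd1a*, *Fam162a* and *Pdk1* ran together, with Pearson's r of 0.99 between *Higd1a* and each of the others and 0.97 between *Fam162a* and *Pdk1*. *Bnip3* and *Bnip3l* had r = 0.89 with each other and 0.83 to 0.90 with those 3 genes. *Mxi1* had r = 0.87 with *Lonp1* and -0.83 to -0.74 with *Higd1a*, *Fam162a* and *Pdk1*. Out of 12386 genes, the closest profiles were those of *Fam60a* (0.996), *Clcn3* (0.995) and *Pdk1* (0.994) for *Higd1a*, and *Hspa5* (0.998), *Pgam1* (0.997) and *Atf3* (0.995) for *Pdk1*. The closest to *Bnip3* was *Acat1* (0.975), to *Bnip3l* *Entpd5* (0.973), to *Fam162a* *Anxa8* (0.995), to *Fundc1* *Ap5s1* (0.988), to *Lonp1* *Spry4* (0.988) and to *Mxi1* *Ap2b1* (0.992). The points fall into the 3 groups and share their library scaling, so these values describe the 9 libraries only.

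Some markers of cell types also differed between Ad-hHIF2 and Ad-GFP, while the sums of other marker lists overlapped. The summed level of 5 enterocyte markers was 2.79 to 3.46 CPM in Ad-hHIF2 against 0.164 to 0.350 in Ad-GFP and 0.291 to 0.569 in Ad-hHIF1, and *Apoa4* made up most of it, at 2.49 ± 0.296 CPM. The sum of 5 intestinal stem cell markers was 1.29 to 2.01 CPM in Ad-hHIF2, 0.36 to 1.5 in Ad-GFP and 1.07 to 1.53 in Ad-hHIF1, and these groups overlapped. For *Lgr5* the log2 difference between Ad-hHIF2 and Ad-GFP was 1.84 and did not pass (adjusted p = 0.0714, edgeR). *Ascl2* had 4, 0 and 11 counts in Ad-GFP, 3, 0 and 0 in Ad-hHIF2 and 24, 15 and 19 in Ad-hHIF1. It was too low for the test in Ad-hHIF2 against Ad-GFP. In the contrast of the HIF groups it passed the count filter through Ad-hHIF1, so its log2 fold change of -4.49 there is not read as a result. The sum of 6 goblet, Paneth and enteroendocrine markers was 1.49 to 2.01 CPM in Ad-hHIF2, 4.75 to 7.50 in Ad-GFP and 3.52 to 4.2 in Ad-hHIF1, so that both HIF groups lay below Ad-GFP. It was nearly all *Muc2*, the goblet cell mucin, since the other 5 had at most 10 counts in every sample, with *Defa24* and *Atoh1* at 0 in all. *Muc2* fell in Ad-hHIF2 (log2 fold change -1.77, adjusted p = 8.82e-04, edgeR) and was at -0.66 in Ad-hHIF1 (adjusted p = 0.517). Of 7 tested epithelial markers, *Cdh1* rose (0.53, adjusted p = 0.00313, edgeR) and *Epcam* fell (-0.81, adjusted p = 0.0472) in Ad-hHIF2, and the sum of all 8 epithelial markers was 3410 to 3740 CPM there against 3220 to 3540 in Ad-GFP. The leukocyte gene *Ptprc* fell from 18, 24 and 23 counts in Ad-GFP to 3, 3 and 0 in Ad-hHIF2 (-3.92, adjusted p = 0.00472, edgeR). The sum of 4 immune markers was 11.2 to 15.0 CPM in Ad-hHIF2 and 9.18 to 15.2 in Ad-GFP. It was nearly all *Cd68*, at 13.6 CPM in Ad-hHIF2 and 10.6 in Ad-GFP. The sum of 7 pericyte and smooth muscle markers, relevant because *Ndufa4l2* and *Cox4i2* are known from such cells, was 1.85 to 5.30 CPM over all groups. For 5 fibroblast markers it was 9.53 to 12.6 CPM in Ad-hHIF2 and 11.6 to 17.7 in Ad-GFP, which overlapped. For 4 endothelial markers it was 0.366 to 0.412 CPM in Ad-hHIF2 and 0.443 to 0.765 in Ad-GFP. The part of these cell types in the changes of the 10 genes was not tested.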

How the data were processed

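RNA-seq of 9 organoid samples was quantified by the authors with RSEM after removal of low-quality reads; aligner, genome build and RSEM version are not given in the sources used here. The deposited tables hold expected counts (not normalized, some of them fractional), TPM and FPKM per gene. Per their headers, TPM and FPKM are scaled by RSEM, and FPKM was not used. Expected counts were rounded and tested with edgeR 4.0.16 (quasi-likelihood, filterByExpr, TMM) in R 4.3.3, with Benjamini-Hochberg adjustment over all genes tested and a threshold of 0.05; intervals are 95%. Each HIF group was fitted with Ad-GFP alone, and the direct contrast with all 9 samples. CPM are rounded counts divided by TMM-scaled library size. The study's own tool, EBSeq, was not used. Ratios of TPM + 0.01 and the mitochondrial share were tested by exact permutation, two-sided. The Ndufa4l2 and Cox4i2 ratios were left out for want of counts. Alternatives were other filters, scalings, DESeq2 1.42.0, limma 3.58.1 (voom, and TPM with pseudocounts 1 or 0.1), a robust fit, unrounded counts, other samples in the fit, a replicate block, and leaving out each sample. The fit was also run on simulated data, and no result given here rests on that run. Named genes are the 10 members, their paralogs, up to 4 genes past the threshold with the largest change per list and comparison, and the 3 closest profiles per member. Members and gene lists were chosen with earlier results of these data known. Positions come from GENCODE M21 (GRCm38), to which 46005 of 46517 identifiers matched, and upstream sequence from RefSeq. With 21722618 to 51119041 counts per sample, the tested members had at least 121 counts in every sample.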

Additional observations from a re-analysis of the deposited data

Results flagged for a closer look

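For 6 of the 8 tested genes Ad-hHIF2 differed from Ad-hHIF1 by the contrast between these groups in edgeR, which called 25.8% of all genes. The log2 fold change of this contrast was -1.79 for *Higd1a*, -1.29 for *Fam162a*, -0.94 for *Pdk1*, -0.34 for *Bnip3* and -0.30 for *Bnip3l*, and for these 5 the edgeR estimates against Ad-GFP had opposite signs in the HIF groups, although none of the HIF1 estimates passed on its own in edgeR with the filter used (*Higd1a* passed with no filter, adjusted p = 0.0255, and *Pdk1* in DESeq2, adjusted p = 0.00313). For *Bnip3* and *Bnip3l* the HIF2 estimates did not pass either (adjusted p = 0.208 and 0.189) and both were 0.10 with total-count scaling, which moved the median of all genes by 0.26, to 0.24. In the contrast itself, the calls for both were lost with total-count scaling, which left 4 members, and without Ad-hHIF2 replicate 4 (adjusted p = 0.053 and 0.0618, edgeR). For *Mxi1* the contrast was 0.46, and both estimates against Ad-GFP were positive.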

How the results depend on the processing

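Limma on log2(TPM + 1) and log2(TPM + 0.1) gave the lowest counts in the comparisons with Ad-hHIF2. In Ad-hHIF2 against Ad-GFP the members called were 1 and 1 (from 5) and the genes 1010 (814 higher, 196 lower) and 1109 (899 and 210). In Ad-hHIF2 against Ad-hHIF1 the members called were 1 and 2 (from 6) and the genes 367 (315 and 52) and 460 (381 and 79). The TPM settings turned signs in Ad-hHIF2 against Ad-GFP for *Bnip3* (0.28 and 0.29), *Dnm1l* (0.12 and 0.16), *Tfb2m* (0.07 and 0.10), *Cox4i1* (0.21 and 0.22), *Ndufa4* (0.25 and 0.27) and *Mxd3* (0.01 and 0.09), and against Ad-hHIF1 for *Dnm1l* (0.02 and 0.00) and *Cox4i1* (0.14 and 0.14). They moved the median of all genes by 0.26 and 0.40 in Ad-hHIF2 against Ad-GFP, by 0.10 and 0.16 in Ad-hHIF1 against Ad-GFP and by 0.16 and 0.24 in the direct contrast. Total-count scaling turned *Bnip3* (0.10), *Bnip3l* (0.10) and *Ndufa4* (0.09) positive in Ad-hHIF2 against Ad-GFP and *Cox4i1* (0.04) against Ad-hHIF1, where it called 2096 genes higher and 804 lower, against 2137 and 1871. In Ad-hHIF1 against Ad-GFP the genes called were 384 with no filter, 145 with DESeq2, 5 with limma-voom, 7 with all 9 samples in a single fit and 7 with the robust fit, and 1 member passed with no filter (*Higd1a*) and 1 with DESeq2 (*Pdk1*). Leaving out each sample gave 2594 to 4335 genes and 4 to 6 members in the direct contrast, 3074 to 4539 genes and 4 to 5 members in Ad-hHIF2 against Ad-GFP, and 0 in Ad-hHIF1 against Ad-GFP, where *Fundc1* turned to -0.01 without Ad-GFP replicate 4. Signs of paralog ratios turned with CPM in place of TPM for *Bnip3* to *Bnip3l* (-0.01 in Ad-hHIF2 against Ad-GFP, -0.04 against Ad-hHIF1), and the mitochondrial share in TPM differed by 0.00 between the HIF groups. With samples left out, *Lonp1* to *Lonp2* ran from -0.18 to 0.04 in Ad-hHIF2 against Ad-GFP, from -0.13 to 0.08 in Ad-hHIF1 against Ad-GFP and from -0.08 to 0.01 in the direct contrast, where *Bnip3* to *Bnip3l* ran from -0.16 to 0.42 and *Fundc1* to *Fundc2* from -0.15 to 0.21. Where a setting rather than fewer samples changed a result, the cause was not tested. The replicate numbers were not taken to pair samples, since deviations of same-numbered samples correlated at 0.093 on average between Ad-GFP and Ad-hHIF2, 0.008 between Ad-GFP and Ad-hHIF1 and -0.11 between the HIF groups, against -0.046, -0.001 and 0.056 for different numbers. Between Ad-GFP and Ad-hHIF2 every sample correlated best with its own number (0.07 to 0.134, against -0.132 to 0.066), which is a hint from the data and not from the design. A replicate block gave 4631, 0 and 3638 genes and 5, 0 and 6 members in the 3 comparisons. *Ndufa4l2* and *Cox4i2* had 0 to 12 and 0 to 4 counts per library, too few to compare, and the deepest library had 0 of both.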
